A study of Homo sapiens with 18 samples.

Results

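The interiors of very long genes were examined in chromatin immunoprecipitation followed by sequencing (ChIP-seq) of a human colon cancer cell line. Members were the protein-coding RefSeq genes on GRCh38 over 200 kb long on chromosomes 1 to 22 and X, which were 1396 of 19974 protein-coding genes on these chromosomes. A peak was counted in the interior where its summit, the position of highest signal, lay over 10 kb inside both gene ends and the peak overlapped no peak of an input library. The interiors of the 1396 genes cover 558 Mb once overlaps between genes are counted once. Each gene was then called marked where both numbered Pol II Control lists had a summit within 1 kb of an end, unmarked where neither list had one, and mixed where 1 list had one.

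All libraries came from HCT116 cells whose INTS11 is fused to a degron (INTS11-AID), a tag through which the auxin IAA triggers loss of the protein. Antibodies were directed against RNA polymerase II (Pol II), its C-terminal domain phosphorylated on tyrosine 1 (Tyr1P), or the same domain phosphorylated on serine 2 (Ser2P). For each antibody there were 2 numbered Control and 2 numbered IAA libraries, and Pol II had 4 more without a number, 1 each titled Control, IAA+EGF, IAA and EGF, beside 2 input libraries. Per the labels' protocols, which are identical for all samples, cells were grown in DMEM with serum, then kept serum-free for 14 h, and the agents were IAA (500 µM, 1 h), the growth factor EGF (100 ng per µl, 30 min) and IFN-beta (2000 U, 1 h). Which agents a Control library received is stated only in its title. For the unnumbered libraries labelled IAA and EGF, the title and the deposited file disagree on which is which, and each is called by its title here. Degradation of INTS11 was not measured in these files, and nothing in the labels says whether numbered libraries came from separate cultures or whether the line is 1 clone.

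Transcription of the whole of a very long gene takes hours, because Pol II must travel its full length from the start. Serine 2 phosphorylation marks elongating Pol II and normally increases from the start towards the 3′ end, while tyrosine 1 phosphorylation has been linked to initiating and enhancer-bound Pol II. INTS11 is the endonuclease of Integrator, a complex that cleaves nascent transcripts, mostly of Pol II close to its start site. Many of the longest human genes encode synaptic and cell adhesion proteins and are silent outside the nervous system, and several lie at common fragile sites.

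Pol II marked 704 of the 1396 genes (50.4%), left 651 (46.6%) unmarked and gave 41 mixed genes. Marked genes were shorter, with a median length of 294 kb against 371 kb for unmarked genes. The marked share was 60.1% of 398 genes of 200 to 250 kb and 21.7% of 69 genes over 1000 kb. Of 694 marked genes with summits at a single end, 581 had a known strand, and in 580 of them the marked end was the annotated start. PDE4B, a cAMP phosphodiesterase, was the 1 exception. As a check on the cell type, 7 of 9 colon epithelium markers had Pol II at an end in both Control lists, and VIL1 and CDX1 had none. The same held for 1 of 6 blood cell markers (SPI1), 0 of 5 fibroblast markers and 1 of 5 neuron markers (RBFOX3, with SNAP25 in 1 list).

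Promoters of contrasting members are shown because the split rests on Pol II at these starts. Each run is the 250 bases before and 50 bases from the start, 5′ to 3′ on the gene's own strand, from RefSeq on GRCh38.p14, with every CG dinucleotide in capitals. TCF7L2 (chr10:112949997-112950296, plus strand), ANKRD11 (chr16:89490512-89490811, minus strand) and SND1 (chr7:127651944-127652243, plus strand) are marked genes that were dense in Ser2P summits with IAA. DLG2 (chr11:85628324-85628623, minus strand) and MACROD2 (chr20:13995266-13995565, plus strand) are marked genes with at most 1 Ser2P summit in any library. CNTNAP2 (chr7:146116551-146116850, plus strand) and EYS (chr6:65707177-65707476, minus strand) are unmarked.
TCF7L2: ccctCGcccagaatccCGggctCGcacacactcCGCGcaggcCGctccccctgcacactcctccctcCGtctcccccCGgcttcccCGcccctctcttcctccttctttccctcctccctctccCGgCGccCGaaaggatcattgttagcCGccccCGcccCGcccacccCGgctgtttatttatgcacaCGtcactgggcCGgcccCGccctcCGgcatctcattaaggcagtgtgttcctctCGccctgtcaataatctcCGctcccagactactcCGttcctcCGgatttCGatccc
ANKRD11: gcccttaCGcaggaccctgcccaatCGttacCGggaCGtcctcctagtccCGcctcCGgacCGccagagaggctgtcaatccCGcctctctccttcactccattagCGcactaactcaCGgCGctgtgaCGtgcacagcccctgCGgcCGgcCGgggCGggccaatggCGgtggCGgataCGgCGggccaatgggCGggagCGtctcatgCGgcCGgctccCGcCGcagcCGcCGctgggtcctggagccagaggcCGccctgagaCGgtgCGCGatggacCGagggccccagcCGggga
SND1: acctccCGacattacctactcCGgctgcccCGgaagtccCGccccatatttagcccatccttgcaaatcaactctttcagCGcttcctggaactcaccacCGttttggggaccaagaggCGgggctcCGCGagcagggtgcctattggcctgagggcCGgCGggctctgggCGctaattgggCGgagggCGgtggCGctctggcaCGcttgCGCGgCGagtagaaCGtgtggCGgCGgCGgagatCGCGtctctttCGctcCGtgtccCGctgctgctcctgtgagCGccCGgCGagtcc
DLG2: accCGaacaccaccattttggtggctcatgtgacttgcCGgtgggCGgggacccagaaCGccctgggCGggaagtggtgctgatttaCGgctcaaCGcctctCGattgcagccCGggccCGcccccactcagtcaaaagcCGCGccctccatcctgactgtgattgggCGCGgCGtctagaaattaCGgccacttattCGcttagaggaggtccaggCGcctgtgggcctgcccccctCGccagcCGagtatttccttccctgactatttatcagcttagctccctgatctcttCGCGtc
MACROD2: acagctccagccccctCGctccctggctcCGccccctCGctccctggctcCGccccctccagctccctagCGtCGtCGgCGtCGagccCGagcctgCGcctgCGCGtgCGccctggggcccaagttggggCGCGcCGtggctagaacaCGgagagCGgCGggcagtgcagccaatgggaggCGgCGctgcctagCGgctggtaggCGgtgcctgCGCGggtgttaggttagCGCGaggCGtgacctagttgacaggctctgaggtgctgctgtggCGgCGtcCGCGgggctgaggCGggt
CNTNAP2: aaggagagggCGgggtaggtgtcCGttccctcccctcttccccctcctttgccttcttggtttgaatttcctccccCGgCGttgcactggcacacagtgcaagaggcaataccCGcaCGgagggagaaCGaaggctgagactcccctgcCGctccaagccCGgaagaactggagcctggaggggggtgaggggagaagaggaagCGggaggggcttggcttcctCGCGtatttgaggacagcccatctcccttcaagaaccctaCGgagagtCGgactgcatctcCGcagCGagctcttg
EYS: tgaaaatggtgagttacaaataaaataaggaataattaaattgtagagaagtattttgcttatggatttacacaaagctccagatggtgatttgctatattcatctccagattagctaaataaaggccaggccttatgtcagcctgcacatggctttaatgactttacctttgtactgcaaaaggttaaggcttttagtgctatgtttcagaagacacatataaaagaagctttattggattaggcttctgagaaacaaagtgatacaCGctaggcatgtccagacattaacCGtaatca
In Pol II Control 1 and Control 2 the nearest summits lay 39 and 36 bp after the start of ANKRD11, 44 and 51 bp after that of SND1, 64 and 90 bp after that of DLG2 and 54 and 22 bp after that of MACROD2. At TCF7L2 they lay 2 bp before the start in Control 1 and 29 bp after it in Control 2. The promoters shown hold 25 CG in TCF7L2, 34 in ANKRD11, 31 in SND1, 22 in DLG2, 34 in MACROD2, 16 in CNTNAP2 and 2 in EYS.

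Marked genes had CG-rich promoters as a group. The median was 30 CG per 300 bases over 526 marked genes with an entry, 18 over 405 unmarked genes and 14 over all 34961 entries of the table. The letters TATAAA on either strand occurred in 4.56% of marked promoters, 6.42% of unmarked promoters and 11.5% of all entries. CG counts overlapped widely between the classes, with middle ranges (lower to upper quartile) of 21 to 37 and 6 to 31, and the unmarked PTPRD had 40. Among marked genes, the median was 29 CG in 71 genes without a summit in either IAA library and 30 CG in 455 genes with one. These are descriptions of letters in a fixed window and were not tested.

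Interior summits were sparse in every list except Ser2P with IAA. Pol II gave 1.81 and 2.54 summits per Mb in Control 1 and 2 and 1.34 and 2.05 in IAA 1 and 2. Tyr1P gave 4.55 and 4.004 in the Control libraries and 3.30 and 2.94 in the IAA libraries. Ser2P gave 2.64 and 0.486 in the Control libraries and 17.9 and 15.4 in the IAA libraries. The input lists held 0.117 and 0.0628 summits per Mb in the same interiors, so all IP lists lay above them. Interior summits made up 10.1% and 9.68% of the Ser2P IAA lists, 3.98% and 1.77% of the Ser2P Control lists, and between 4.23% and 6.84% of the Pol II and Tyr1P lists.

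**Figure D1:**
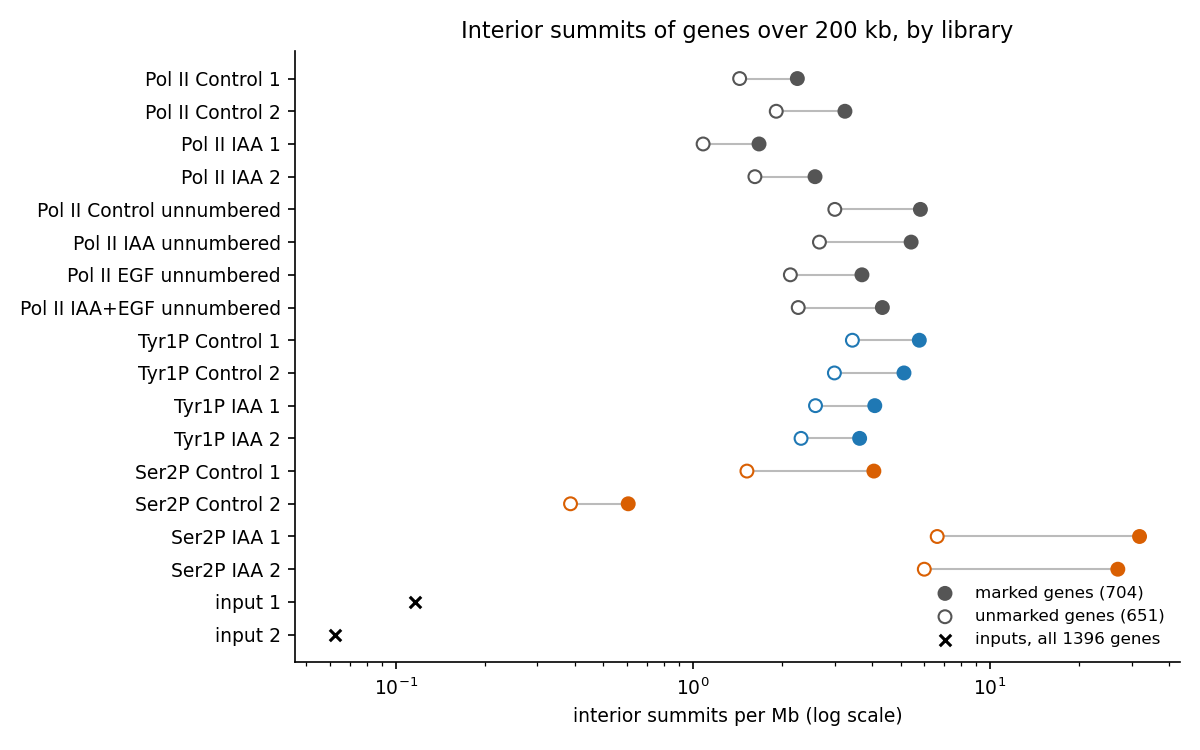
Interior summits per Mb (log axis) in each library, with filled circles for the 704 marked genes, open circles for the 651 unmarked genes and crosses for the 2 inputs over all 1396 genes; each circle is 1 library. Marked genes lay above unmarked genes in all 16 libraries, and the Ser2P IAA libraries stood highest at 31.9 and 26.9 per Mb in marked genes.

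With IAA the lists held many more Ser2P summits inside long genes. Interior summits numbered 9996 and 8571 in the IAA libraries against 1473 and 271 in the Control libraries. Both IAA libraries lay above both Control libraries, which themselves lay far apart. In bulk chromatin, more cells with a signal and more signal per cell cannot be told apart. The ratio of group means was 10.6, the lower IAA library stood 5.82-fold above the higher Control library, and the ratio was 6.30 without Control 2 and 34.3 without Control 1. On the log2 scale the mean difference was 3.87, with a two-sided exact permutation p of 0.33, the smallest that 2 against 2 libraries allow (0.5 adjusted over 15 library-level tests). The lists themselves differed in length, with 99476 and 88987 peaks for IAA against 37442 and 15420 for Control, and with each list limited to its 15270 strongest peaks the difference was 0.56 on the log2 scale. Estimated depth was 9.34 and 10.5 fragments per kb for IAA against 13.6 and 3.28 for Control, and the ratio of summits per Mb divided by this depth was 9.88.

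Tyr1P summits were fewer with IAA, by a smaller amount. Control libraries held 2540 and 2233 interior summits and IAA libraries 1839 and 1637, with no overlap between the groups. The IAA mean was 0.728 of the Control mean, a log2 difference of -0.46 (two-sided exact permutation p = 0.33, adjusted 0.5). Over lists of equal length the direction turned, to 0.22.

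Pol II summits overlapped between the groups, with 1010 and 1418 in Control and 749 and 1146 in IAA. The log2 difference was -0.37 (two-sided exact permutation p = 0.667, adjusted 0.714), and 0.43 over lists of equal length. The unnumbered Pol II libraries held more, with 4.34 per Mb in Control, 3.98 in IAA, 2.89 in EGF and 3.23 in IAA+EGF. Each of these 4 is a single library, so no test was made among them, and all 4 exceeded the 4 numbered Pol II libraries. Divided by estimated depth, summits per Mb were 0.617 and 0.444 in numbered Control and 0.266 and 0.339 in numbered IAA, without overlap. The unnumbered libraries then gave 0.539 in Control, 0.544 in IAA, 0.449 in EGF and 0.402 in IAA+EGF, all below numbered Control 1. Values divided by depth were not tested.

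The change with IAA was compared between antibodies by exchanging Control and IAA labels within each. The Ser2P change exceeded the Tyr1P change by 4.33 on the log2 scale (exact permutation p = 0.0556, the smallest that 36 arrangements allow, adjusted 0.167 over 15 comparisons) and the Pol II change by 4.24 (exact permutation p = 0.111, adjusted 0.185). Tyr1P and Pol II changes differed by -0.09 (exact permutation p = 0.889, adjusted 0.889).

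Over all lengths together, long genes with Pol II at an end held more interior summits of all 3 antibodies than those without. Unmarked genes were longer, and at 200 to 250 kb the order turned in every numbered Pol II and Tyr1P library and in Ser2P Control 2. There Tyr1P Control 1 and 2 gave 7.28 and 6.23 per Mb in marked and 7.44 and 6.54 in unmarked genes. In shorter genes, of 30 to 200 kb, unmarked genes lay above marked genes in every numbered Pol II and Tyr1P library. Tyr1P Control 1 and 2 gave 9.37 and 8.67 per Mb in marked and 11.3 and 10.9 in unmarked shorter genes. Ser2P went the other way, with 79.9 and 69.5 in marked and 27.5 and 24.1 in unmarked shorter genes in IAA 1 and 2. In each length class over 300 kb, marked genes lay above unmarked genes in every numbered library. The part of length was not tested. The split uses the Pol II Control lists, so Pol II values in the classes it makes, along marked genes and in their windows, are a description and carry no test. In marked and unmarked genes respectively, Ser2P IAA 1 gave 31.9 and 6.64 summits per Mb and IAA 2 gave 26.9 and 6.01. Ser2P Control 1 gave 4.07 and 1.52, and Control 2 gave 0.606 and 0.388. The ratio of marked to unmarked was thus 4.80 and 4.48 with IAA against 2.67 and 1.56 in Control, a log2 difference of 1.18 (two-sided exact permutation p = 0.33, adjusted 0.5). For Tyr1P the ratio was 1.68 and 1.71 in Control and 1.58 and 1.57 with IAA, a log2 difference of -0.10 (two-sided exact permutation p = 0.33, adjusted 0.5). For Pol II it was 1.56 and 1.70 in Control and 1.54 and 1.59 with IAA, and the groups overlapped. The Ser2P shift exceeded the Tyr1P shift by 1.28 (exact permutation p = 0.0556, adjusted 0.167), and over lists of equal length the Ser2P difference was 0.13, where the groups overlapped (two-sided exact permutation p = 0.667).

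Summits were thinner in genes over 200 kb than in the 7429 protein-coding genes of 30 to 200 kb, whose interiors cover 419 Mb. Ser2P IAA libraries gave 62.7 and 54.6 per Mb in the shorter genes, against 17.9 and 15.4 in the long ones. Long over short was 0.286 and 0.281 for Ser2P with IAA, 0.244 and 0.197 for Ser2P Control, 0.391 to 0.457 over the 8 Pol II libraries and 0.420 to 0.450 over the 4 Tyr1P libraries. The difference held among marked genes alone, where Ser2P IAA gave 79.9 and 69.5 per Mb in shorter genes and 31.9 and 26.9 in long ones. With IAA the Ser2P ratio of long to short was higher by 0.37 on the log2 scale (two-sided exact permutation p = 0.33, adjusted 0.5), and the Pol II and Tyr1P ratios overlapped between the groups, at 0.03 and -0.04. Over lists of equal length the differences were 0.33 for Ser2P, 0.30 for Pol II and 0.22 for Tyr1P.

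Among the long genes themselves, Ser2P density with IAA was lower in each longer class of genes, both marked and unmarked. In marked genes of 200 to 250 kb, the Ser2P IAA libraries gave 46.9 and 39.1 summits per Mb, and in the 15 marked genes over 1000 kb they gave 5.45 and 5.68. Ser2P Control 1 gave 5.82 in the shortest class, 6.16 at 250 to 300 kb and 1.48 in the longest. Ser2P Control 2 went from 0.884 to 0.417 at 400 to 600 kb and was 0.581 over 1000 kb. Neither Ser2P Control library thus fell in each longer class. Tyr1P Control 1 and 2 gave 7.28 and 6.23 in the shortest class, 7.74 and 7.08 at 250 to 300 kb and 2.46 and 2.28 in the longest. In unmarked genes the Ser2P IAA libraries went from 17.9 and 16.5 per Mb to 0.909 and 0.689 across the same classes. The ratio of IAA to Control means in marked genes stayed between 11.3 and 14.1 in all classes up to 1000 kb and was 5.41 above. The longest class holds few genes and summits, so its values are the least precise.

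**Figure D2:**
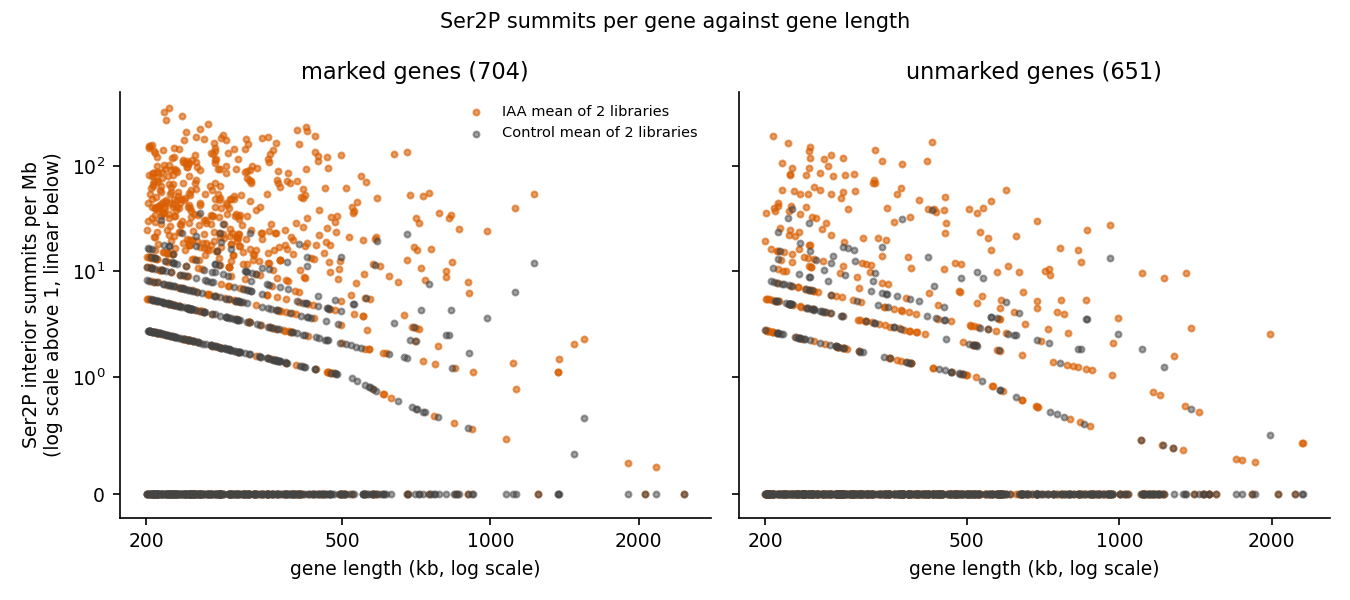
Ser2P interior summits per Mb for each marked (left, 704) and unmarked (right, 651) gene against gene length (log axis), as the mean of the 2 IAA (orange) and the 2 Control (grey) libraries; the vertical axis is linear below 1 and logarithmic above, and the slanting lines of points are genes with 1, 2 or a few summits. Values of 100 per Mb and more occur below 700 kb, and most of the longest genes sit at or near 0.

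Along marked genes, Ser2P summits with IAA ran from the start deep into the gene. Genes were read from the annotated start, or from the single marked end in 113 genes without a strand. Between 10 and 25 kb from the start the Ser2P IAA libraries gave 45.2 and 40.2 summits per Mb, between 100 and 150 kb 43.6 and 37.4, between 200 and 300 kb 28.9 and 23.7, and beyond 500 kb 11.5 and 10.1. The ratio of IAA to Control means was 11.5 at 10 to 25 kb, between 11.3 and 14.5 in every interval out to 500 kb, and 6.38 beyond, where 93 genes remain. Tyr1P was lower with IAA in both libraries than in both Control libraries from 25 kb on, with ratios of 0.634 to 0.770. The numbered Pol II libraries showed their lowest ratio at 25 to 50 kb, with 3.29 and 4.32 per Mb in Control and 1.27 and 2.71 with IAA. The unnumbered Pol II libraries gave 8.07 in Control and 7.61 in IAA there.

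**Figure D3:**
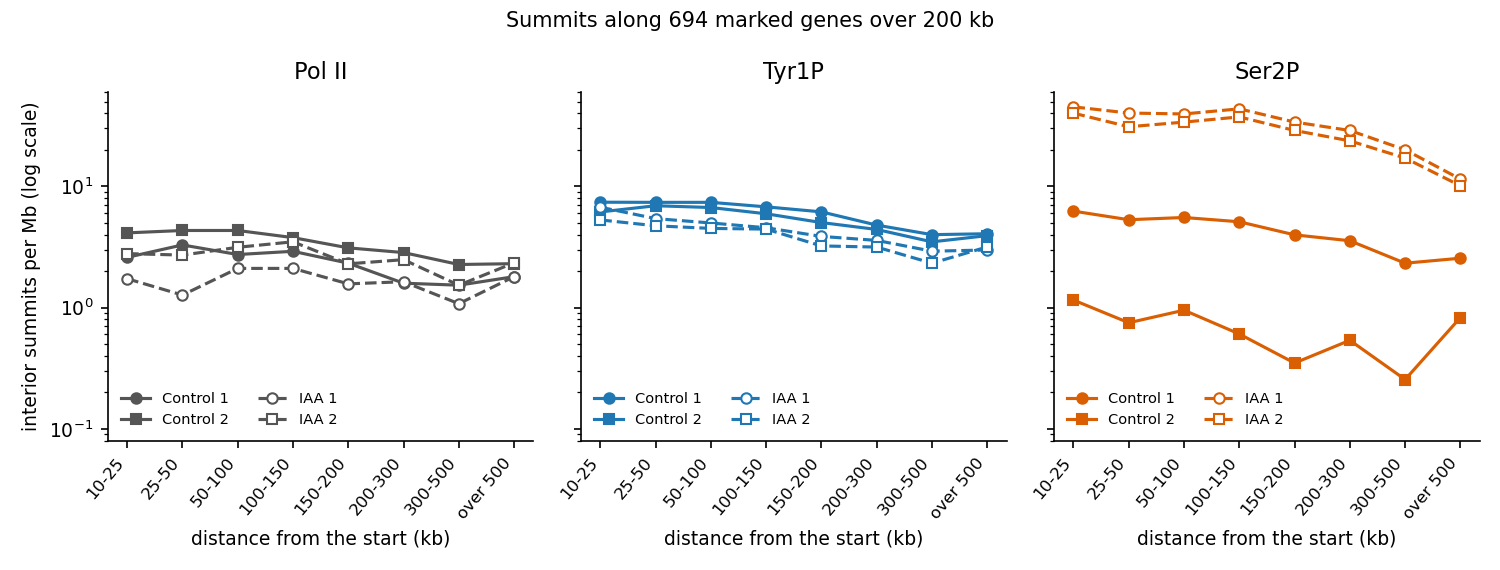
Summits per Mb (log axis) against distance from the start in 694 marked genes, 1 panel per antibody and 1 line per library (filled symbols and solid lines Control, open symbols and dashed lines IAA). The Ser2P IAA lines lie above both Control lines at every distance and drop from 45.2 and 40.2 to 11.5 and 10.1 per Mb, while the Pol II lines of both groups cross. All 694 genes contribute to each interval up to 200 kb, 636 at 200 to 300 kb, 303 at 300 to 500 kb and 93 beyond. The lines therefore do not follow the same genes throughout.

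The share of summits close to the start differed between the numbered groups by up to 4.28 percentage points, in Pol II. Within 50 kb of the start lay 11.6% of the interior bases of the genes read this way. This zone held 16.1% and 17.0% of Ser2P summits in Control and 15.5% and 15.0% with IAA, a difference of -1.29 percentage points. For Pol II it held 15.7% and 15.2% in Control and 9.98% and 12.4% with IAA, a difference of -4.28 percentage points. It carries no test, as the genes were chosen by the Pol II Control lists. The unnumbered Pol II libraries did not show it, with 14.9% in Control and 15.2% in IAA. With these 2 libraries added the difference was -2.72 points. For Tyr1P it held 14.9% and 15.0% in Control and 16.8% and 15.8% with IAA, a difference of 1.34 percentage points. None of the numbered groups overlapped, and Ser2P and Tyr1P each had a two-sided exact permutation p of 0.33 (adjusted 0.5). Over lists of equal length the differences were -2.48 points for Ser2P, -4.06 for Pol II and -0.59 for Tyr1P, whose direction turned. Relative to gene length, Ser2P IAA summits were spread almost evenly, with medians at 0.459 and 0.463 of the gene and 11.1% and 11.3% of them in the 10% of the gene nearest its other end.

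Coverage of the gene bodies was counted in 2067 windows of 100 kb in marked genes. They were laid from 10 kb inside the end with the lower coordinate, whatever the strand, and a remainder under 100 kb was left out. A Ser2P summit fell in 22.1% and 4.64% of windows in Control and in 52.1% and 48.3% with IAA, a difference of 36.8 percentage points. For Tyr1P the values were 30.6% and 28.2% in Control and 25.4% and 23.2% with IAA, a difference of -5.08 points. Both comparisons had a two-sided exact permutation p of 0.33 (adjusted 0.5). The Ser2P difference was 1.94 points over lists of equal length, and that of Tyr1P turned to 1.09. For Pol II the groups overlapped, with 16.3% and 21.4% against 12.9% and 17.9%. Ser2P peaks of the IAA libraries nonetheless covered little sequence, at 1.07% and 1.03% of marked interiors, against 0.164% and 0.0288% in Control.

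Few Ser2P peaks of the IAA libraries lay under a Control Ser2P peak or a Pol II peak. In marked interiors, 55.4% of Ser2P IAA 1 peaks overlapped a Ser2P IAA 2 peak and 64.4% of IAA 2 peaks overlapped an IAA 1 peak. Only 5.30% and 6.59% of them overlapped a peak of Ser2P Control 1, and 3.33% and 4.01% one of Pol II Control 1. The Ser2P IAA lists held 7723 and 6527 such peaks against 545 of Pol II Control 1, which limits how high these shares can be. Of the Pol II Control 1 peaks, 94.3% lay under a Tyr1P Control 1 peak, and 50.3% and 51.2% under one of Ser2P IAA 1 and IAA 2. Of Tyr1P Control 1 peaks, 35.0% lay under a Pol II Control 1 peak. Peaks of Ser2P IAA 1 and IAA 2 overlapped 87.1% and 88.4% of the 147 Ser2P Control 2 peaks. They overlapped 42.3% and 44.4% of the 986 Ser2P Control 1 peaks.

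Annotated starts inside long genes held a smaller share of Ser2P summits with IAA than of any other list. Starts listed over 10 kb inside both ends numbered 1056 in 518 members, and their 1 kb surroundings cover 0.334% of interior bases. They held 19.2% and 15.0% of Pol II summits in Control, 8.58% and 9.67% of Tyr1P summits in Control, and 2.43% and 2.68% of Ser2P summits with IAA. Ser2P Control 1 and 2 had 11.7% and 33.2% there. Away from these starts and from the ends of other genes lay 92.3% and 92.0% of Ser2P summits with IAA, against 68.7% and 75.04% of Pol II summits in Control.

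Unmarked genes were not uniform in this respect. In 82 of them Pol II had a summit at an annotated internal start in both Control lists, and Ser2P IAA density there was 30.5 and 27.7 per Mb, with Ser2P in both IAA libraries in 96.3% of these genes, against 56.9% of all members. The 197 unmarked genes whose internal starts did not have Pol II in both lists gave 3.05 and 2.74 per Mb, with Ser2P in both in 28.9%, and the 372 without a listed internal start gave 4.59 and 4.13, with 26.9%. In the 634 marked genes without Pol II at an internal start in both lists the values were 30.3 and 25.6, with 74.0%, and the 70 with it gave 46.4 and 39.7, with 98.6%. The rule for marked genes looks only at the outer ends, so genes with Pol II at an inner start are counted among the unmarked.

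Gene by gene, 709 of 1396 members (50.8%) had more Ser2P summits in both IAA than in both Control libraries, against 51.6% of all 8825 genes over 30 kb, and 0 members had fewer in both, against 0.0907%. The share among members was thus near that of all genes tested. It was 69.7% of marked genes (491 of 704) and 30.4% of unmarked genes (198 of 651). Genes of 30 to 200 kb gave 64.3% and 26.4% in the same classes. Counting presence alone, 286 members had a Ser2P summit in both IAA and neither Control library, or 20.5% against 27.4% of all genes, and 0 showed the reverse, against 0.0453%. With lists of equal length, 71 members had more and 15 fewer, and presence was gained in 41 and lost in 7.

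For Tyr1P, 218 members (15.6%) had fewer summits in both IAA libraries, against 8% of all genes over 30 kb, and 27 (1.93%) had more, against 1.44%. Presence was lost in 42 members (3.01%), against 2.93% of all genes, and gained in 10 (0.716%), against 0.578%. For Pol II, 118 members (8.45%) had fewer, against 4.84%, and 32 (2.29%) had more, against 1.51%. Pol II presence was lost in 38 (2.72%), against 2.42%, and gained in 19 (1.36%), against 0.805%. The shares with lost presence were thus near those of all genes tested. The balance turned over lists of equal length, with 69 members with more and 33 with fewer for Tyr1P and 96 with more and 33 with fewer for Pol II. The part of gene length in these shares was not tested.

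Members differed widely among themselves. Over the 704 marked genes, the Ser2P mean of the IAA libraries had a median of 15.7 per Mb, a middle range of 2.94 to 45.6 and a highest value of 355, and 104 genes (14.8%) had none. In Control the median was 0.701, and 347 marked genes had none. Of 651 unmarked genes, 353 had no Ser2P summit in either IAA library. The 70 marked genes with the most summits in a library held 45.0% and 46.0% of all Ser2P summits counted in marked genes with IAA.

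The genes with the largest excess of Ser2P summits were all marked and from 217 to 676 kb long. RPTOR, the scaffold subunit of the mTOR complex that controls growth (chr17:80544838-80966368), had 3 and 1 Ser2P summits in Control and 105 and 83 with IAA. They spread from 15.8 to 409 kb from the start in IAA 1, with a median gap of 3.04 kb. AOPEP, an aminopeptidase (chr9:94726699-95150224), had 7 and 2 in Control and 89 and 84 with IAA. APBB2, an adaptor of amyloid precursor protein (chr4:40810027-41214542), had 2 and 0 in Control and 88 and 79 with IAA. The gap between IAA and Control in these genes follows from how they were chosen. Their Pol II summits stayed between 0 and 8 in all 4 numbered libraries.

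TIAM1, an exchange factor of the GTPase RAC (chr21:31118418-31559087), had 1 and 0 Ser2P summits in Control and 90 and 70 with IAA. AGAP1, a GTPase-activating protein of membrane traffic, had 4 and 0 in Control and 90 and 70 with IAA. ANKRD11, a chromatin regulator whose promoter is shown above (chr16:89267630-89490561), reached the highest density of all members, with 7 and 0 in Control and 75 and 69 with IAA, a mean of 355 per Mb. TCF7L2, the transcription factor of Wnt signalling in the colon (chr10:112950247-113167678), had 3 and 0 in Control and 65 and 62 with IAA, a mean of 322 per Mb against 7.60. Its Pol II counts were 1 and 2 in Control and 1 and 2 with IAA. LRRC37A2 had 22 and 8 in Control and 93 and 86 with IAA, but it belongs to a family of near-identical copies, so its values are uncertain.

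**Figure D4:**
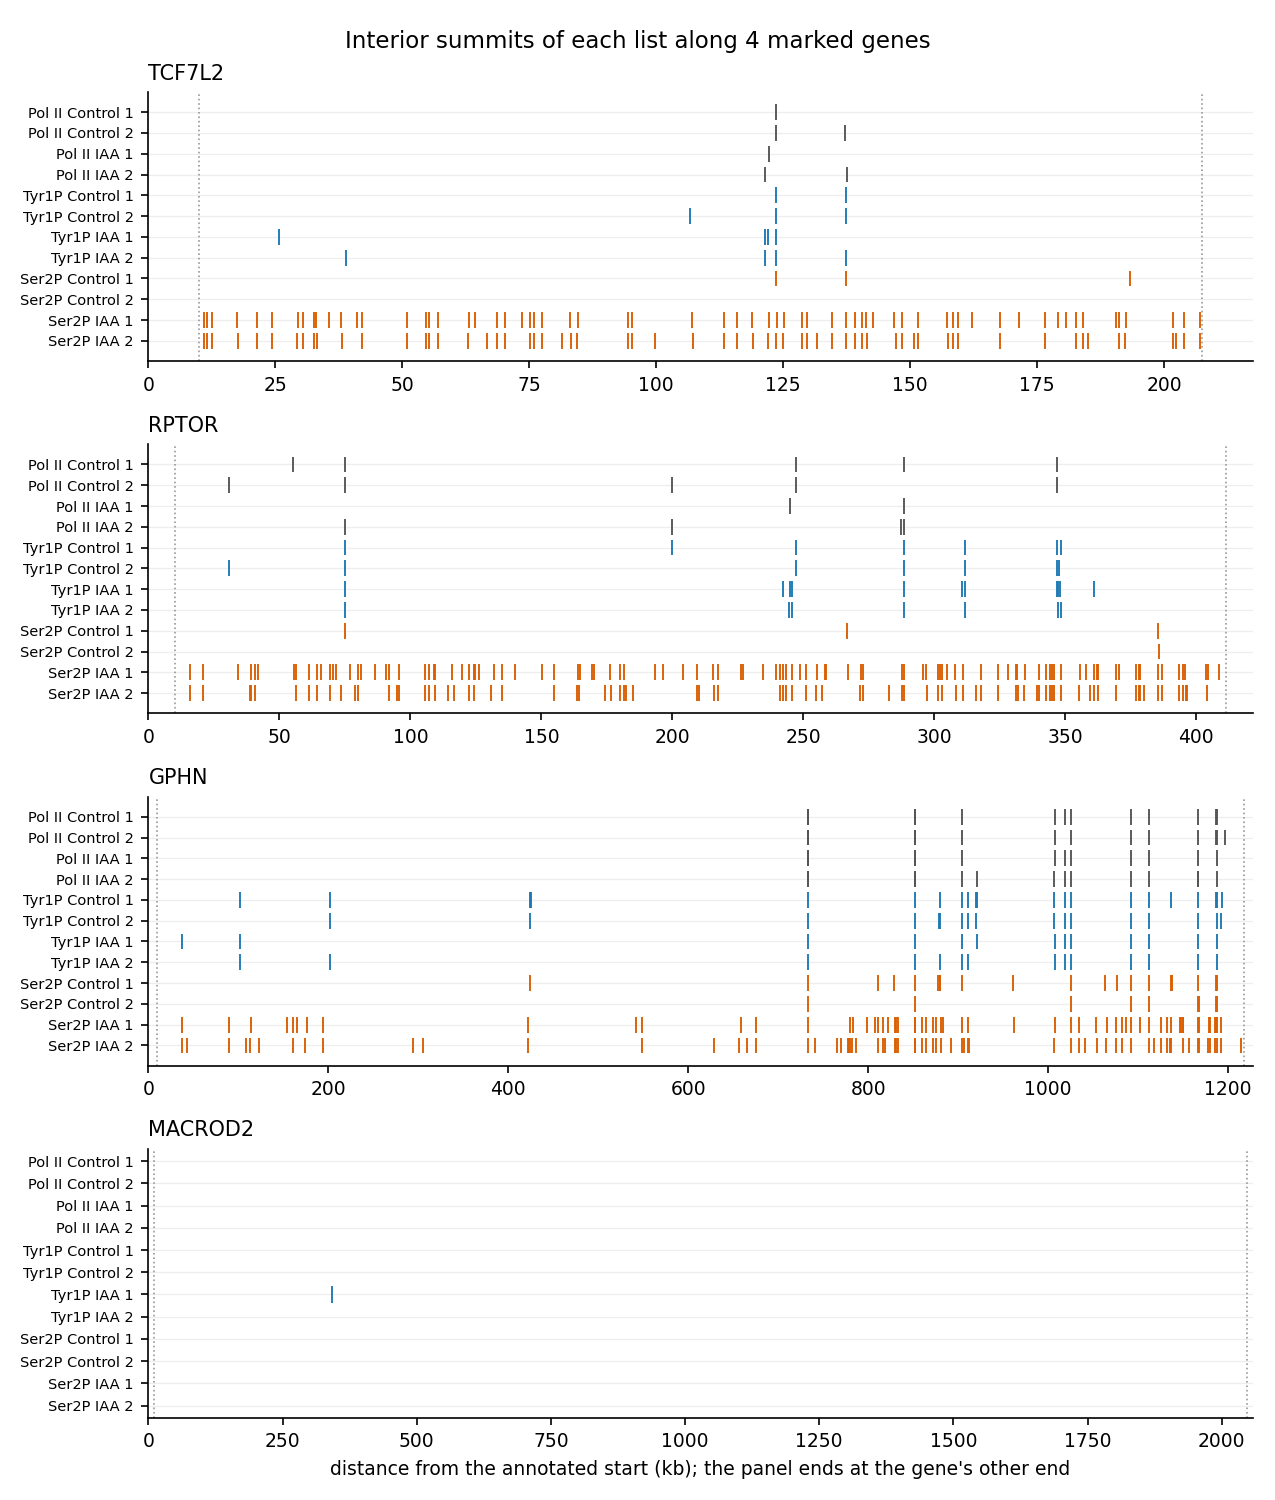
Position of every interior summit along TCF7L2, RPTOR, GPHN and MACROD2, as distance in kb from the annotated start, with 1 line per numbered library and dotted lines 10 kb inside each end. In TCF7L2 and RPTOR the Ser2P IAA lists hold 62 to 105 summits spread over the whole interior, in GPHN most summits of all antibodies lie beyond 700 kb, and MACROD2 holds 1 summit in the 12 lists. Summits at ends of any other genes inside a span are included.

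The longest marked genes had few Ser2P summits beyond their starts. RBFOX1, a splicing factor of brain and muscle and the longest member at 2474 kb, had no Ser2P or numbered Pol II summit and at most 1 Tyr1P summit. DLG2, a synaptic scaffold, had 1 Ser2P summit in IAA 1, 712 kb from the start, and none of any other antibody. MACROD2, an ADP-ribose hydrolase, had 1 Tyr1P summit in IAA 1 and none of any other antibody. LRP1B, a lipoprotein receptor, had 1 Ser2P summit in IAA 1 and 1 Tyr1P summit in Control 1. DAB1, an adaptor of reelin signalling, had 2 and 0 Ser2P summits in Control and 4 and 3 with IAA, the farthest 68.5 kb from the start. It had 2 Tyr1P summits in IAA 1. CCSER1 had 1 and 0 Ser2P summits in Control and 4 and 2 with IAA, beside 2 and 3 Pol II summits in Control and 1 and 4 with IAA. Its Tyr1P summits numbered 6 and 5 in Control and 5 and 5 with IAA. Their mean density was 3.77 per Mb in Control and 3.43 with IAA, against 4.28 and 3.12 over all members. The marked start in these genes was not followed by the dense Ser2P summits seen in RPTOR or TCF7L2.

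The longest unmarked genes had few Ser2P summits as well. CNTNAP2, a neuronal adhesion protein, had 1 and 1 Ser2P summits with IAA, both 2223 kb from the start, and none in Control. PTPRD, a receptor tyrosine phosphatase, had 1 and 1 with IAA, both 1171 kb from the start, and none in Control. DMD, which encodes dystrophin, had none in any Ser2P library. CSMD1 had no interior summit in any library. EYS, a photoreceptor protein, had 2 and 0 in Control and 5 and 5 with IAA, the nearest 1919 kb from its start. CTNNA3, an alpha-catenin, had 1 Ser2P summit in IAA 1 and 4 and 3 Tyr1P summits in Control against 2 and 2 with IAA.

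Interior Pol II in Control was most frequent in LRRC37A2, with 11 and 14 summits against 4 and 6 with IAA and uncertain as above, and in GPHN, GSE1 and DLGAP1. GPHN, a scaffold of inhibitory synapses that also makes the molybdenum cofactor (chr14:66508147-67735355), had 13 and 13 Pol II summits in Control and 12 and 14 with IAA. All of them lay beyond 700 kb from the start, as did 48 of 61 and 52 of 69 Ser2P summits with IAA. Counts of single genes include summits at ends of any other genes inside the span, which were not separated here. DLGAP1, a synaptic scaffold protein (unmarked), had 9 and 14 Pol II summits in Control and 2 and 7 with IAA. GSE1 (mixed) had 10 and 14 in Control and 3 and 5 with IAA, with Tyr1P at 17 and 19 against 6 and 11.

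Tyr1P in Control was most frequent in PCDH7, VTI1A, GPHN and GSE1. PCDH7, a protocadherin that is unmarked (chr4:30720369-31146800), had 34 and 29 Tyr1P summits in Control and 24 and 22 with IAA. Its Pol II summits went the other way, with 7 and 11 in Control and 18 and 26 with IAA, and the groups did not overlap for either antibody. The unnumbered Pol II libraries gave 43 in Control, 41 in IAA, 17 in EGF and 14 in IAA+EGF for this gene. VTI1A, a SNARE protein of vesicle traffic (chr10:112446988-112855368), had 21 and 19 Tyr1P summits in Control and 14 and 8 with IAA.

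Gene lists differed in the share of marked genes, from 13.3% of synaptic and neuronal adhesion genes to 91.2% of ubiquitin and trafficking genes. They also differed in length, with a median of 825 kb in the synaptic and 1369 kb in the fragile site list. Medians of the other lists were 360 to 385 kb, against 319 kb over all members. Lists were not compared with genes of like length, and the part of length was not tested. Of 98 synaptic and neuronal adhesion genes, 13 (13.3%) were marked, 26 (26.5%) had more Ser2P summits with IAA in both libraries, and the median Ser2P density with IAA was 0 per Mb. Within this list SYT1, the calcium sensor of synaptic vesicles, had 21 and 1 Ser2P summits in Control and 29 and 27 with IAA. PTPRN2, a receptor-type phosphatase (mixed), had 1 and 1 in Control and 37 and 28 with IAA. Of 31 common fragile site genes 19 were marked, and 12 (38.7%) had more Ser2P summits, with a median of 0.474 per Mb. MAD1L1, of the spindle checkpoint, had 2 and 0 in Control and 21 and 18 with IAA, and TMEM135 had 3 and 0 against 11 and 13. Over all 1396 members 50.8% had more, and the median was 4.38 per Mb.

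Over all 704 marked members, 69.7% had more Ser2P summits, with a median of 15.7 per Mb. Of 63 adhesion, polarity and cytoskeleton genes 42 were marked and 45 (71.4%) had more Ser2P summits, with a median of 17.0 per Mb. DST, a linker of cytoskeletal filaments, had 12 and 1 in Control and 63 and 58 with IAA, and PTK2, the focal adhesion kinase, had 7 and 0 against 62 and 57. Of 34 ubiquitin and trafficking genes 31 were marked and 25 (73.5%) had more, with a median of 12.4 per Mb. SND1, in this list although it is a nuclease of RNA silencing complexes, had 1 and 0 Ser2P summits in Control and 61 and 52 with IAA. It had 0 Pol II summits in all 4 numbered libraries. USP34, a deubiquitinase, had 10 and 0 in Control and 50 and 46 with IAA.

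Of 66 transcription and chromatin genes 39 were marked and 42 (63.6%) had more Ser2P summits, with a median of 10.1 per Mb. HDAC4, a histone deacetylase, had 3 and 0 in Control and 66 and 58 with IAA. Of 53 kinase, phosphodiesterase and receptor genes 27 were marked and 26 (49.1%) had more, with a median of 4.09 per Mb. STK39, a kinase of ion transport, had 5 and 0 in Control and 39 and 34 with IAA. In 0 genes of the 6 lists was Ser2P lower in both IAA libraries. Fewer Tyr1P summits in both IAA libraries were counted in 14 synaptic genes (14.3%), 4 fragile site genes (12.9%) and 2 ubiquitin genes (5.88%), against 15.6% of all members. They were counted in 18 adhesion and cytoskeleton genes (28.6%), 13 kinase genes (24.5%) and 14 transcription genes (21.2%). These differences between lists were not tested.

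The length limit fell among genes of mixed behaviour. Just above it, FREM2 (200.1 kb, unmarked) had no interior summit in any library. ST6GALNAC5 (200.1 kb, unmarked) had 1 and 0 Ser2P summits in Control and 4 and 3 with IAA, and LRRC49 (200.3 kb, marked) had 2 and 1 against 2 and 2. Just below it, LRCH1 (199.9 kb, marked) had 0 and 0 Ser2P summits in Control and 7 and 1 with IAA. FUT9 (199.6 kb) and ADAMTS20 (199.4 kb), both unmarked, had no Ser2P summit.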

How the data were processed

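The data are ChIP-seq peak lists, 16 from immunoprecipitates and 2 from input. Per the submitters' processing notes, the genome build is hg38 and the tools named are MACS2 2.2.7.1, deepTools 3.5.1, Bowtie2 2.3.4.1, Trim Galore 0.6.6 and Picard 2.25.7. Settings and the use of the inputs in peak calling are not stated there. Peaks were called per sample, since the authors deposited 1 list for each. In the deposited lists each peak has a score, a fold enrichment, −log10 p and −log10 q values and a summit position. These deposited fold, −log10 and score values were used only within a list, to rank or filter peaks and to estimate depth.

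Only chromosomes 1 to 22 and X were used, and any peak that shared 1 bp or more with an input peak was dropped (0.276% to 2.31% of a list). Genes and promoters came from RefSeq tables on GRCh38.p14, and 1156 members had a strand there. Each summit was counted once in the union of interiors, so densities are summits per Mb of distinct sequence, while values of single genes count all summits between their ends. Deposited lists hold no read totals. Depth was estimated by solving each deposited fold and −log10 p for a whole number of stacked fragments and a background. The fold was read as (fragments + 1) over (background + 1), and p as the upper tail of a Poisson distribution. At least 99.9% of peaks per list were solved within a relative tolerance of 0.0002. The most frequent background, over the shortest peak width, gave 2.94 to 13.6 fragments per kb. A weak peak can be missed in a shallow list, and a wide domain can be split into several summits.

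Library values were compared by two-sided exact permutation of 2 against 2 libraries, adjusted by Benjamini-Hochberg over 15 tests, and differences between antibodies by exchanging labels within each antibody, adjusted over 15 comparisons. Labels do not name separate cultures, so p-values measure only the spread between these samples, which may be technical. Pol II values that rest on the marked genes are given without a test. Equal replicate numbers did not pair the libraries, as given in the closing section. Genes were called by both IAA libraries lying beyond both Control libraries. On simulated lists for Ser2P, 99.5% of 200 genes changed 8-fold were called and 9.46% of 1142 unchanged genes were called as well. The simulated lists shared 1 density in unchanged genes, while the deposited Ser2P lists differ in length and depth. The simulated rate is therefore not the rate of wrong calls in these data. All work used Python 3.11.15, numpy 2.4.6, pandas 2.3.3 and scipy 1.17.1.

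Named genes were the 6 longest marked and 6 longest unmarked, the 8 with the largest excess of Ser2P summits with IAA, the 4 in which the higher Ser2P IAA library lay furthest below the lower Control library (no member met this), the 4 with the most Pol II and the 4 with the most Tyr1P summits in Control, the 2 with the most Ser2P summits with IAA per gene list, and 3 genes on either side of 200 kb. Members, gene lists and tests were chosen with earlier results of these data known. Alternatives changed list length, q threshold, margin, length limit, end window, input removal, joining of close summits and the libraries used.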

Additional observations from a re-analysis of the deposited data

Results flagged for a closer look

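Over the full lists, several changes with IAA went in opposite directions in 2 antibodies, with every numbered IAA library beyond every numbered Control library in both. The change of Ser2P exceeded that of Tyr1P by 4.33 on the log2 scale in interior summits per Mb, where both Ser2P IAA libraries were higher than both Control libraries and both Tyr1P IAA libraries were lower. The same opposite pattern held for the ratio of marked to unmarked density, by 1.28 on the log2 scale, and for the share of 100 kb windows with a summit, by 41.9 percentage points. In the share of summits within 50 kb of the start the change with IAA was -2.63 percentage points for Ser2P relative to Tyr1P, and 5.61 for Tyr1P relative to Pol II. The last rests on the numbered Pol II libraries, as the unnumbered Control and IAA libraries gave shares of 14.9% and 15.2%. It is a description that was not tested, since the Pol II Control lists chose the genes. Each of the other 4 differences had an exact permutation p of 0.0556, the smallest of 36 arrangements, and an adjusted p of 0.167 over 15 comparisons. Over lists of equal length Ser2P and Tyr1P did not go in opposite directions in density (0.56 and 0.22), in windows (1.94 and 1.09 points) or near the start (-2.48 and -0.59 points), and the ratios of marked to unmarked density changed by 0.13 and -0.07.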

How the results depend on the processing

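Of 206 alternatives tried for the 15 library-level results, 14 turned the direction, and of 148 tried for counts of genes, 95 stayed within 1.5 times. The Ser2P differences in density, in marked over unmarked density, in long over short genes and in windows kept their direction in every alternative run, but not their size, which was 0.56, 0.13 and 0.33 on the log2 scale and 1.94 percentage points over lists of equal length. With every list limited to its 15270 strongest peaks, the log2 differences of Pol II became 0.43 in density and 0.045 in marked over unmarked density, and the window difference became 2.73 percentage points. Tyr1P became 0.22 in density, 0.22 in long over short genes, -0.59 points near the start and 1.09 points in windows. Ser2P genes then numbered 71 with more, 15 with fewer, 41 gained and 7 lost. Tyr1P gave 69, 33, 47 and 20, and Pol II 96, 33, 66 and 20, in the same order. The Pol II difference in marked over unmarked density also turned with −log10 q of at least 5 (0.044) and in the 771 genes over 300 kb (0.046), where the Ser2P share near the start turned as well (0.42 points). Genes over 300 kb are fewer, and gave 353 with more and 145 gained for Ser2P, 11, 120, 3 and 22 with more, fewer, gained and lost for Tyr1P, and 20, 61, 11 and 18 for Pol II. With −log10 q of at least 5, 14 genes had more Tyr1P and 6 gained it. With the unnumbered Control and IAA libraries added, Pol II gave 2 with more, 1 with fewer, 1 gained and 0 lost, under a rule that then needs 3 libraries a side. Where a cause is not given by the construction, the cause was not tested.

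Leaving out 1 library at a time gave log2 differences of -0.12 to 0.0035 for Pol II marked over unmarked density, turned without Control replicate 2, and -0.049 to 0.11 for Pol II long over short genes, turned without Control replicate 1 and, at -0.011, without IAA replicate 2. Tyr1P long over short genes ranged from -0.094 to 0.0065, turned without Control replicate 1. Counts with more, fewer, gained and lost ranged over 47 to 137, 133 to 279, 30 to 55 and 47 to 106 for Pol II, and over 39 to 128, 275 to 361, 15 to 45 and 66 to 88 for Tyr1P. For Ser2P they ranged over 710 to 818, 0 to 24, 286 to 598 and 0 to 13, the 598 without Control replicate 1 and the 24 and 13 without Control replicate 2. A rule over 3 libraries is easier to meet than over 4, so these counts are mostly higher.

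A fit with the replicate block leaves each mean difference as it was, 3.87 for Ser2P density, with an exact sign-flip p of 0.5, the smallest for 2 pairs. Over 704 marked genes, the deviations of equally numbered libraries correlated at 0.11 for Pol II, -0.036 for Tyr1P and 0.048 for Ser2P, so the numbers were not taken as pairs. The alternatives that also leave out summits at internal starts, and the counts with more or fewer under every setting, were added after seeing the data. Ser2P Control replicate 2 had the fewest peaks and low depth, which limits what its absences show.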

Other observations

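The 41 mixed genes, with Pol II at an end in 1 Control list only, lay between the other classes in Ser2P density, at 17.0 and 14.5 per Mb with IAA and 1.91 and 0.464 in Control. In 20 of them (48.8%) Ser2P summits were more numerous in both IAA libraries, near the 50.8% of all members, and 14 had none in either. Median widths of interior peaks were 285 and 317 bp in the Ser2P IAA lists and 333 and 406 bp in the Ser2P Control lists. The most Ser2P summits in any 1 gene were 105 and 86 with IAA and 29 and 9 in Control.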
